A study of Homo sapiens with 4 samples.

Results

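The comparison described here sets hypoxic against normoxic RPMI8226 cells, an established human multiple myeloma line, over every human miRNA assay of a TaqMan array card. The members were chosen by name alone, as the wells whose identifier marks a human miRNA: 377 of the 384 wells on the card, the other 7 being control RNAs. Normoxic cells were kept at 20% oxygen and hypoxic cells at 1% oxygen, each for 24 h in AIM-V medium (degassed for the hypoxic incubator), and the same design also covered the exosome fraction of the medium, so that the series holds 4 samples with 1 in each group. No transgene, drug or genotype difference separates the groups, and whether the cell samples came from separate cultures is not given in the labels. Each miRNA was read in 1 well per sample as a threshold cycle (Ct), the point in the PCR at which the signal passes a set level. A lower Ct means more template, and if each cycle doubles the product, a gap of 1 cycle is a 2-fold difference. A Ct of 35 is the highest value in the data and was read as not detected. Because each group is 1 sample, every difference below describes these cultures, without a test or a replicate error.

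A miRNA is a short RNA that guides Argonaute proteins to messenger RNAs, mostly by pairing of its seed, which runs from base 2 to base 8. miRNAs that share a seed can share many targets, and miRNAs whose hairpins lie close together are often cut from 1 primary transcript. Low oxygen stabilises hypoxia-inducible factor (HIF), which binds hypoxia response elements near its target genes, and miR-210 is the miRNA best known to be switched on in this way. Multiple myeloma is a tumour of plasma cells that grows in the bone marrow, a tissue poor in oxygen.

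The sequences that carry the main differences are given first, because their seeds define the groups in which the values are described later. They are RefSeq mature sequences (assembly GRCh38.p14), 5′ to 3′, with the seed in capitals; 133 of the 147 assays detected in both cell samples matched one. The assays at least 2-fold higher in hypoxic cells were, from the highest ratio down:
hsa-miR-210-3p: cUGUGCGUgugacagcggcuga
hsa-miR-194-5p: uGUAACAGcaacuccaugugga
hsa-miR-193a-3p: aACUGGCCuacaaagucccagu
hsa-miR-32-5p: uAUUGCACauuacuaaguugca
hsa-miR-130b-3p: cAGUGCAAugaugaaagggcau
hsa-miR-491-5p: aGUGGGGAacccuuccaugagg
hsa-miR-652-3p: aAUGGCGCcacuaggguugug
hsa-miR-98-5p: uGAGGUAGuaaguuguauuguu
hsa-miR-423-5p: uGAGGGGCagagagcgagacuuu
hsa-miR-328-3p: cUGGCCCUcucugcccuuccgu
hsa-miR-301b-3p: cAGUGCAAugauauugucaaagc

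miR-130b and miR-301b share the seed AGUGCAA, while the other higher miRNAs each have a seed of their own within the set. The assays at least 2-fold lower in hypoxic cells were, from the lowest ratio up:
hsa-miR-422a: aCUGGACUuagggucagaaggc
hsa-miR-429: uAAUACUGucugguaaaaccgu
hsa-miR-197-3p: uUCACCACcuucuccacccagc
hsa-miR-520e-3p: aAAGUGCUuccuuuuugaggg
hsa-miR-185-5p: uGGAGAGAaaggcaguuccuga
hsa-miR-28-3p: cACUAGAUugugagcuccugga
hsa-miR-19a-3p: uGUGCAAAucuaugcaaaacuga
hsa-miR-221-3p: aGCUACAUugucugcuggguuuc
hsa-miR-449b-5p: aGGCAGUGuauuguuagcuggc

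The lower set shared no seed among its members. The next sequences belong to miRNAs that share a seed with a member of these sets but behaved differently. Others were detected in only 1 of the cell samples, or share a seed with such a miRNA (miR-103, miR-192 and miR-16). The pair miR-23a and miR-23b share a seed and had opposite signs. These sequences let the reader see how few bases separate some pairs:
hsa-miR-301a-3p: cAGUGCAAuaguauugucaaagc
hsa-miR-454-3p: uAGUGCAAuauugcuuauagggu
hsa-miR-25-3p: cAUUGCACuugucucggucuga
hsa-miR-92a-3p: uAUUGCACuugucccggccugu
hsa-miR-193b-3p: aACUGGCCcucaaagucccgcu
hsa-miR-200b-3p: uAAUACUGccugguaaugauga
hsa-miR-19b-3p: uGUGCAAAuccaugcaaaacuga
hsa-miR-222-3p: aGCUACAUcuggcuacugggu
hsa-miR-373-3p: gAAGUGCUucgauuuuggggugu
hsa-miR-34a-5p: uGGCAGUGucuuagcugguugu
hsa-miR-23a-3p: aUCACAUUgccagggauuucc
hsa-miR-23b-3p: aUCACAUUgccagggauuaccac
hsa-let-7a-5p: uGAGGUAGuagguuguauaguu
hsa-let-7f-5p: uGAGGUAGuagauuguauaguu
hsa-miR-103a-3p: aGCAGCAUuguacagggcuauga
hsa-miR-107: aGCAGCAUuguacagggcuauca
hsa-miR-192-5p: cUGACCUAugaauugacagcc
hsa-miR-215-5p: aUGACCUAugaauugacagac
hsa-miR-493-3p: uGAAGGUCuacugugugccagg
hsa-miR-15a-5p: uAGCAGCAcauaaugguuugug
hsa-miR-16-5p: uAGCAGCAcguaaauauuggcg
hsa-miR-449a: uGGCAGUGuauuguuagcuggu
hsa-miR-455-3p: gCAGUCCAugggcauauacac
hsa-miR-133a-3p: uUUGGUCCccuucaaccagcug

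The last sequence is the stretch around the start of MIR210HG, the long RNA that hosts miR-210, shown because miR-210 changed most among the assays detected in both samples. It spans chr11:568408-568707 on the minus strand (GRCh38.p14), from 250 bases before the annotated start to 50 after it, and the MIR210 hairpin lies downstream at chr11:568089-568198 on the same strand. Only the letters ACGTG, a form of the core of a hypoxia response element, were searched, on both strands, and other forms were not. They occurred once, marked in capitals:
MIR210HG window: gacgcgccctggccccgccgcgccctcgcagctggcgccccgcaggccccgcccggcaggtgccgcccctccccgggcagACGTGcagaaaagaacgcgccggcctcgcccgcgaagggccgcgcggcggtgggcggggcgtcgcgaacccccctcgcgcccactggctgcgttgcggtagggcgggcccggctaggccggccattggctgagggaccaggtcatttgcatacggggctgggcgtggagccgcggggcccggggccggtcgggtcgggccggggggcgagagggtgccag

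The same letters occur in 7518 of 35116 promoter windows of this length (21.4%). A match in this window is a description of letters only, and these data hold no measurement of HIF binding.

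A Ct under 35 was recorded for 162 of the 377 miRNAs in normoxic cells and for 155 in hypoxic cells. There were 147 detected in both, 15 in normoxia only, 8 in hypoxia only and 207 in neither. The median Ct of the detected assays was 31.12 in normoxic and 30.99 in hypoxic cells, and 63 of the 162 and 50 of the 155 were at Ct 32 or later. Just inside the ceiling were miR-642 in hypoxic cells (Ct 34.996), miR-525-3p in normoxic cells (34.995) and miR-489 in hypoxic cells (34.97), each at exactly 35 in the other sample. U6, the small nuclear RNA used as normalizer, stood at 18.82 ± 0.15 in normoxic and 18.81 ± 0.12 in hypoxic cells (SD over 4 wells of 1 card). The small nucleolar RNAs RNU44 (Ct 23.25 and 22.95) and RNU48 (22.99 and 22.97) gave U6-normalized log2 changes of 0.29 and 0.01. Taking them as normalizer in place of U6 moved every log2 change by -0.15 and the median over the detected assays from 0.03 to -0.12.

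Most of the blood and lymphoid markers were detected, and so was most of the epithelial list. Of 8 assays in the blood and lymphoid list 7 were detected in both cell samples, against 147 of all 377 assays. The earliest were miR-142-3p (Ct 24.95 and 24.97) and miR-146a (25.95 and 25.71), while miR-146b-3p was not detected. The list's median log2 change was 0.23. None of its 7 detected assays was past 2-fold, against 7.48% higher and 6.12% lower of all 147 assays detected in both samples. Its highest values belonged to miR-150 (0.86), a regulator of MYB in B cells, and miR-155 (0.69), which controls the germinal centre response. miR-126, usually counted as endothelial but also found in blood progenitors, was at Ct 25.98 and 25.97, a log2 change of 0.01. The myeloid miR-223 was late, at 31.71 and 31.94 (-0.24). The 3 red cell assays and the liver miRNA miR-122 were not detected, 1 of 4 fibroblast assays was (miR-199a-3p, -0.48), and none of 3 muscle assays was detected in both samples. The nervous system list had 3 of 5 assays detected and a median of 0.06 (miR-138 0.23, miR-9 0.06, miR-128 -0.39). The epithelial list had 6 of 7 detected, with miR-200b at Ct 28.96 and 28.64 the earliest and a median of -0.14. Among the assays of other lineages only miR-429 was past 2-fold (lower, against 6.12% of all 147 assays). The muscle miRNA miR-133a was seen in hypoxia only. The part of admixed cells in any result was not tested.

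Most of the earliest signals changed little. The lowest Ct in normoxic cells belonged to miR-493 (20.94), which was at 35 in hypoxic cells and is described with the other miRNAs seen in 1 sample. In hypoxic cells the lowest Ct belonged to miR-19b (21.02 in normoxia and 20.98 in hypoxia), followed by miR-106a (21.73 and 21.94), miR-17 (21.88 and 21.95) and miR-20a (22.63 and 22.96), all from the miR-17-92 cluster and its relative on the X chromosome. miR-24 (23.99 and 23.90), miR-29a (24.33 and 23.95), miR-16 (23.66 and 23.96) and miR-222 (24.91 and 24.61) came next, and of these miR-29a had the largest log2 change, 0.38. miR-19a was a further exception among these, at 22.87 in normoxia and 23.95 in hypoxia. Levels of different miRNAs cannot be ranked as molecules from these values, because each assay has its own efficiency.

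Over the 147 assays detected in both samples the log2 change (hypoxia over normoxia) had a median of 0.03, an interquartile range from -0.29 to 0.39 and a standard deviation of 0.68, or 0.62 without miR-210. It was above 0 for 81 assays and below 0 for 66, and 106 assays (72.1%) lay within 1.5-fold. There were 11 assays at least 2-fold higher in hypoxia (7.48%) and 9 at least 2-fold lower (6.12%). With RNU44 and RNU48 as normalizer the split was 6 higher and 10 lower. The U6 wells are the only repeat measurement on the cards. The difference between any U6 well of the hypoxic card and any of the normoxic card ran from -0.27 to 0.32 cycles. The log2 change of 73 of the 147 miRNAs was no larger than that, but U6 is read near Ct 18.8 within 1 card, and its wells do not give the error of the later miRNA assays or of separate samples.

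**Figure D1:**
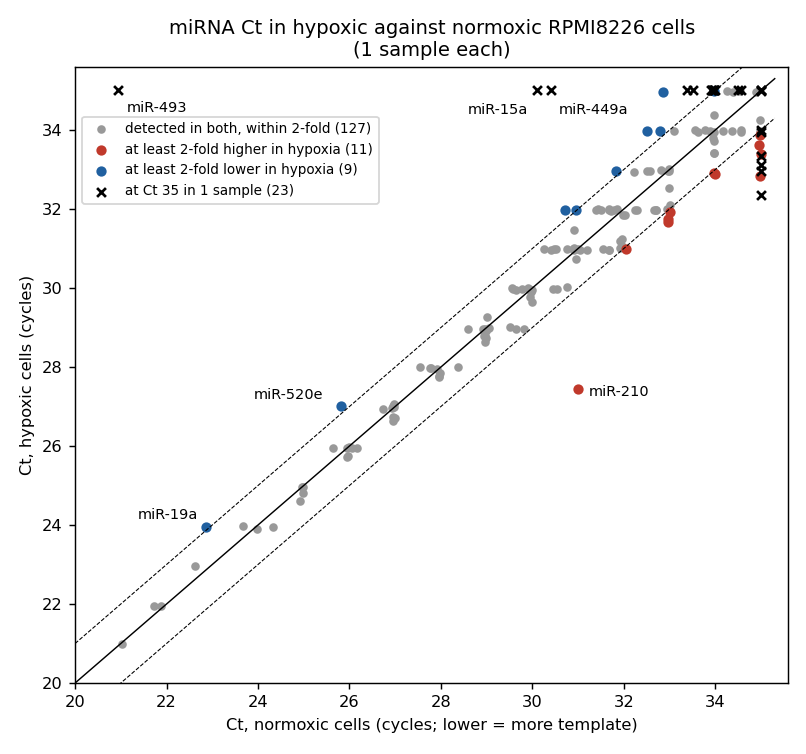
Ct in hypoxic cells (vertical axis, cycles) against Ct in normoxic cells (horizontal axis, cycles), 1 point per miRNA assay and 1 sample per condition, for the 170 assays detected in at least 1 sample. The solid line marks no change and the dashed lines a 2-fold difference (1 cycle) after U6 normalization. miR-210 lies far below the lines, most other coloured points lie above Ct 31, and crosses mark the 23 assays at 35 in 1 sample.

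miR-210 stood apart from every other assay detected in both samples. Its Ct was 30.998 in normoxic and 27.44 in hypoxic cells, which is 11.7-fold higher in hypoxia (log2 change 3.55). miR-210 represses ISCU, an assembly factor for iron-sulphur clusters, and by this route lowers mitochondrial respiration under low oxygen. The next log2 change among the 147 was 2.13, and among assays detected before Ct 32 in both samples no other was past 2-fold upward. With RNU44 and RNU48 as normalizer its log2 change was 3.40.

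The other 10 higher miRNAs were all late. miR-194, a p53-induced miRNA that represses MDM2, went from Ct 34.97 to 32.84 (4.36-fold). miR-193a-3p, a repressor of the growth factor receptor KIT, went from 34.99 to 33.40 (3.00-fold), and miR-32, which represses the cell death protein BIM, from 34.96 to 33.61 (2.54-fold). For these 3, and for miR-98 of the let-7 family (34.97 to 33.88, 2.12-fold), the normoxic well lay within 0.1 cycles of the ceiling. miR-130b went from 32.97 to 31.67 (2.45-fold) and its neighbour miR-301b from 33.97 to 32.91 (2.07-fold). miR-491-5p, known to repress BCL2L1, went from 32.96 to 31.73 (2.33-fold), and miR-652 from 33.996 to 32.89 (2.14-fold). miR-423-5p went from 33.005 to 31.92 (2.11-fold). miR-328, which can also act as a decoy for an RNA-binding protein in leukaemia cells, went from 32.05 to 30.99 (2.08-fold). The ratios of miR-301b, miR-328, miR-423-5p, miR-652 and miR-98 fell below 2-fold with RNU44 and RNU48 as normalizer.

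The lower miRNAs included the only 2 that were past 2-fold and detected before Ct 28 in both samples, miR-19a and miR-520e. miR-19a, a main oncogenic component of the miR-17-92 cluster, went from Ct 22.87 to 23.95 (2.13-fold lower). miR-520e, from the primate-specific cluster active in placenta, went from 25.81 to 27.01 (2.31-fold lower). miR-197 went from 30.71 to 31.97 (2.40-fold lower) and miR-221, a repressor of the cell-cycle inhibitor CDKN1B, from 30.95 to 31.97 (2.04-fold lower). These 4 and miR-210 were the only assays past 2-fold among the 94 detected before Ct 32 in both samples. miR-28-3p went from 31.84 to 32.96 (2.18-fold lower) and miR-185 from 32.79 to 33.97 (2.27-fold lower). miR-429, which represses the mesenchymal regulators ZEB1 and ZEB2, went from 32.51 to 33.97 (2.76-fold lower). miR-422a, a repressor of the bile acid enzyme CYP7A1, went from 32.86 to 34.96 (4.31-fold lower), and miR-449b from 33.98 to 34.99 (2.02-fold lower). Both ended within 0.1 cycles of the ceiling. miR-205 joined the lower miRNAs with RNU44 and RNU48 as normalizer (33.10 to 33.98, log2 change -0.88 with U6 and -1.03 with them).

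**Figure D2:**
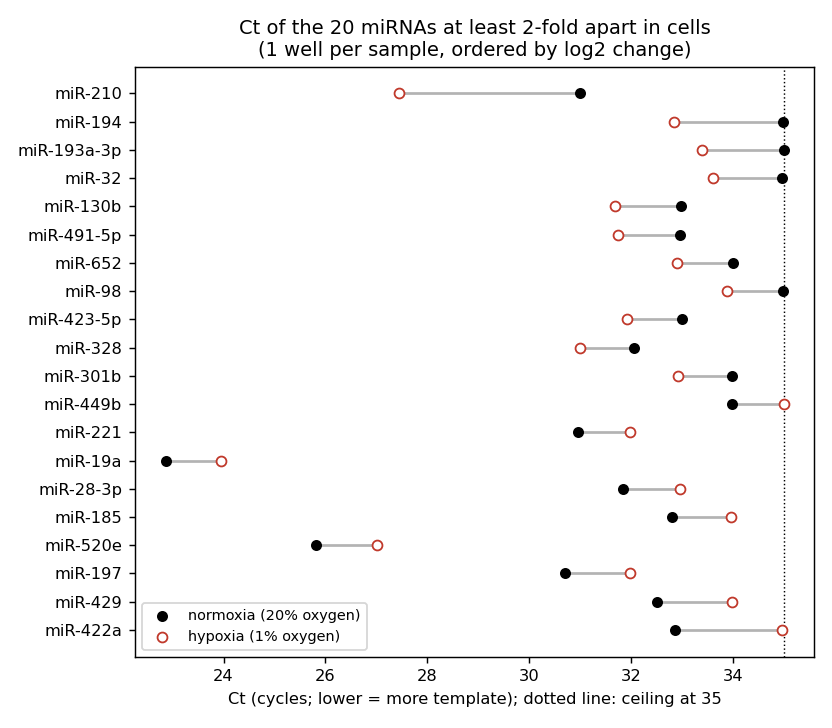
Ct (horizontal axis, cycles, lower meaning more template) of the 20 miRNAs at least 2-fold apart, ordered by log2 change, with filled circles for the normoxic and open circles for the hypoxic sample, 1 well each. Only miR-19a, miR-520e and miR-210 have a Ct below 28 in any sample, and 6 rows touch the dotted ceiling at 35.

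Such differences were most frequent at late Ct, though not in even steps. Among assays with a mean Ct from 20 to 26 the standard deviation of the log2 change was 0.34 (17 assays), and from 26 to 28 it was 0.36 (18 assays). It was 0.75 from 28 to 30 (26 assays, miR-210 among them), 0.58 from 30 to 32 (36 assays), 0.68 from 32 to 33 (19 assays) and 0.94 from 33 to 35 (31 assays). Past 2-fold in either direction were 5.88% and 5.56% of the earliest bins, 3.85% of the bin from 28 to 30, 8.33% of the bin from 30 to 32, 21.1% of the bin from 32 to 33 and 32.3% of the last. Of the 20 assays past 2-fold, 14 had a mean Ct of 32 or later.

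The Ct values were also not spread evenly between whole cycles. Within 0.1 cycles of a whole number lay 87 of the 162 detected normoxic wells (53.7%) and 111 of the 155 hypoxic wells (71.6%). Most of these lay just under it: the last 0.1 of a cycle, which is 10% of its length, held 46.3% of the normoxic and 66.5% of the hypoxic wells. All 147 pairs had at least 1 Ct within 0.1 of a whole number. Both were so placed in 35 pairs, which include 5 of the 20 assays past 2-fold. In 42 pairs only the normoxic Ct was so placed, and these had a median log2 change of 0.25, with 8 assays 2-fold higher and 0 lower. In 70 pairs only the hypoxic Ct was, with a median of -0.23, 0 assays 2-fold higher and 7 lower. The part of this placement in the results was not tested, and miR-210 (30.998 and 27.44) belongs to the former kind.

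**Figure D3:**
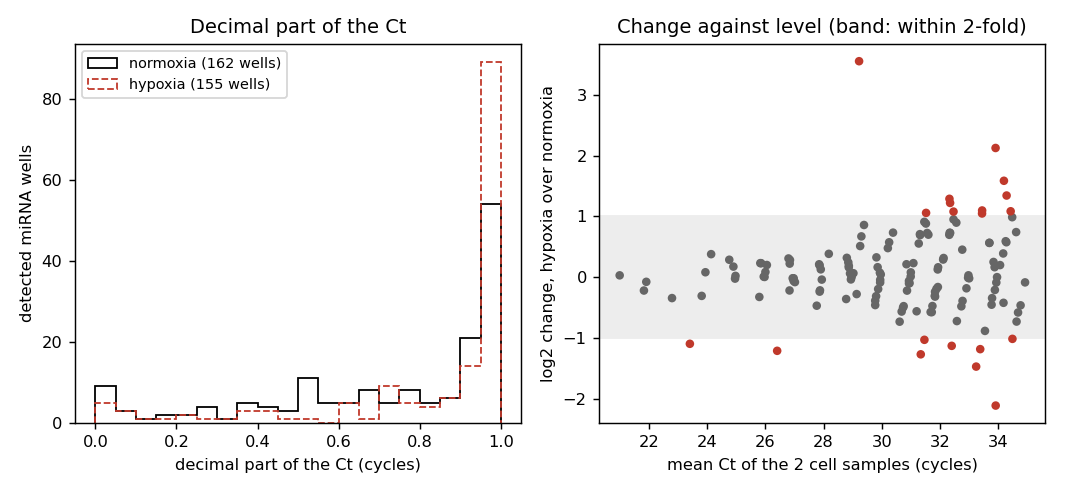
Left, histogram of the decimal part of the Ct (cycles) of detected miRNA wells, normoxia as a solid and hypoxia as a dashed line; right, log2 change against the mean Ct of both cell samples, with a grey band for changes within 2-fold and red points beyond it. The last 0.1 of a cycle holds 46.3% of normoxic and 66.5% of hypoxic wells, and the red points gather above a mean Ct of 31.

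Some assays crossed the ceiling, so that only a bound on their change exists. The 15 miRNAs seen in normoxia only had a median Ct of 33.93, and 12 of them were at 33 or later. The remaining 3 were miR-493, miR-15a and miR-449a. miR-493, from the large imprinted cluster of chromosome 14 (hairpin at chr14:100869060-100869148, plus strand), had the lowest Ct of all miRNAs in normoxic cells, 20.94, and was not detected in hypoxic cells, at least 17199-fold lower. miR-493 was also at 35 in both exosome samples, and each of its values rests on 1 well. Of 32 assays in a nearby stretch of chromosome 14 on the same strand (chr14:101022066-101065991), 3 were detected in both cell samples and 0 in only 1. These 3, miR-494, miR-487a and miR-323-3p, were late, at Ct 31.92, 32.02 and 34.27 in normoxia. miR-15a, which represses BCL2 and is lost together with miR-16 in many B cell tumours, was at 30.10 in normoxia, and at least 30.0-fold lower in hypoxia. Its neighbour miR-16, the hairpins lying at chr13:50049119-50049201 for MIR15A and chr13:50048973-50049061 for MIR16-1 on the minus strand, was detected early in both samples (23.66 and 23.96), although miR-16 has a further gene on chromosome 3. miR-449a, a miRNA of ciliated cells, was at 30.41 in normoxia (at least 24.1-fold lower in hypoxia), and its sequence differs from that of miR-449b by U1A and U22C, counted from the 5′ end. miR-449b was detected in both cell samples.

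The 8 miRNAs seen in hypoxia only had a median Ct of 33.64, and none was earlier than 32. miR-455-3p was at 32.36 (at least 6.23-fold higher) and miR-133a at 32.96 (at least 4.11-fold). miR-107, which represses the HIF partner ARNT, was at 33.10 (at least 3.72-fold), and miR-424, which represses the HIF-degrading scaffold CUL2, at 33.33 (at least 3.16-fold). miR-28-5p (33.94) and the p53-induced miR-215 (33.98) had bounds of 2.08-fold and 2.02-fold. In all, 12 of the 15 and 6 of the 8 bounds were 2-fold or more. Each of these rests on 1 well per sample.

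miRNAs with a common seed often differed from each other. There were 24 seed groups with at least 2 assays detected in both samples, holding 66 assays and 10 of the 20 past 2-fold. With U6 as normalizer every member was above 0 in 6 groups, no group had every member below 0, and 18 were mixed. With RNU44 and RNU48 these counts were 3, 2 and 19, and the 2 groups wholly below 0 were miR-19a with miR-19b and miR-21 with miR-590-5p. The median span between the highest and lowest member was 0.77 on the log2 scale and the widest 1.79, while 10 groups spanned 1 or more. Over all 147 assays the interquartile range ran from -0.29 to 0.39. The span of groups of unrelated assays was not computed, so these spans cannot be read as particular to shared seeds. Some mixed signs rest on values near 0. The groups entirely above 0 were miR-99a (0.67), miR-100 (0.51) and miR-99b (0.17), which repress MTOR; miR-26a (0.23) and miR-26b (0.21); miR-193a-3p (1.59) and miR-193b (0.28); and, with RNU44 and RNU48 turning 1 member of each below 0, miR-29b (0.58), miR-29a (0.38) and miR-29c (0.13, then -0.02), miR-125a-5p (0.39) and miR-125b (0.07, then -0.08), and miR-135b (0.20) and miR-135a (0.03, then -0.12). The miR-29 group represses collagens and MCL1.

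In the AGUGCAA group the neighbours miR-130b (1.29) and miR-301b (1.05, or 0.90 with RNU44 and RNU48) were high and miR-301a (-0.36) and miR-454 (-0.22) were not. miR-301a and miR-454 were the earlier ones, at Ct 28.60 and 26.73 in normoxia. In the AUUGCAC group miR-32 (1.34) differed from miR-25 (-0.38) and miR-92a (-0.02), which were at 29.58 and 26.97 in normoxia against 34.96 for miR-32. In the ACUGGCC group the late miR-193a-3p (1.59) differed from the early miR-193b (0.28, Ct 26.99 and 26.70). The member past 2-fold was thus the later one in each of these groups.

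Close sequences did not always have close values. miR-19a (-1.09) and miR-19b (0.03, or -0.12 with RNU44 and RNU48) differ by the single base U11C. Both were early, at 22.87 and 21.02 in normoxia. miR-23a (-0.73) and miR-23b (0.90) had opposite signs under each normalizer and differ by U19A and by their length, 21 and 23 bases in this table. miR-23a was at 30.25 and 30.97, miR-23b at 33.01 and 32.11. miR-221 (-1.03) and miR-222 (0.29) have 10 differences over the shared positions after their common seed. Among pairs detected unequally, miR-107 and miR-103 differ by C22G, and miR-103 was steady (29.06 and 28.99, log2 change 0.07) while miR-107 appeared in hypoxia only. miR-192 and miR-215 differ by C1A and C20A, and miR-192 was at 34.55 and 33.95 (0.59) while miR-215 appeared in hypoxia only. How far assays for such near-identical miRNAs read each other's target is not stated in the labels.

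Other groups gave the same mixed picture. The 8 let-7 assays, whose targets include HMGA2 and RAS, had a median of 0.06 and ran from let-7d (-0.47) to miR-98 (1.09). The 6 assays of the miR-17 seed had a median of -0.15 with none past 2-fold: miR-20a (-0.34), miR-93 (-0.32), miR-106a (-0.22) and miR-17 (-0.07) were below 0, and miR-20b (0.21) and miR-106b (0.31) above it. In the miR-15/16 seed group miR-15b (-0.47) and miR-16 (-0.31) were below 0 and miR-195 (0.33) above. miR-200b (0.32) and miR-429 (-1.47) gave the widest span. miR-373 (0.45) and miR-520e (-1.21) share their seed with the embryonic miR-302 family, of which miR-302b was seen in normoxia only, at Ct 33.52. miR-148b (0.70) stood above miR-148a (-0.02) and miR-152 (-0.04).

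**Figure D4:**
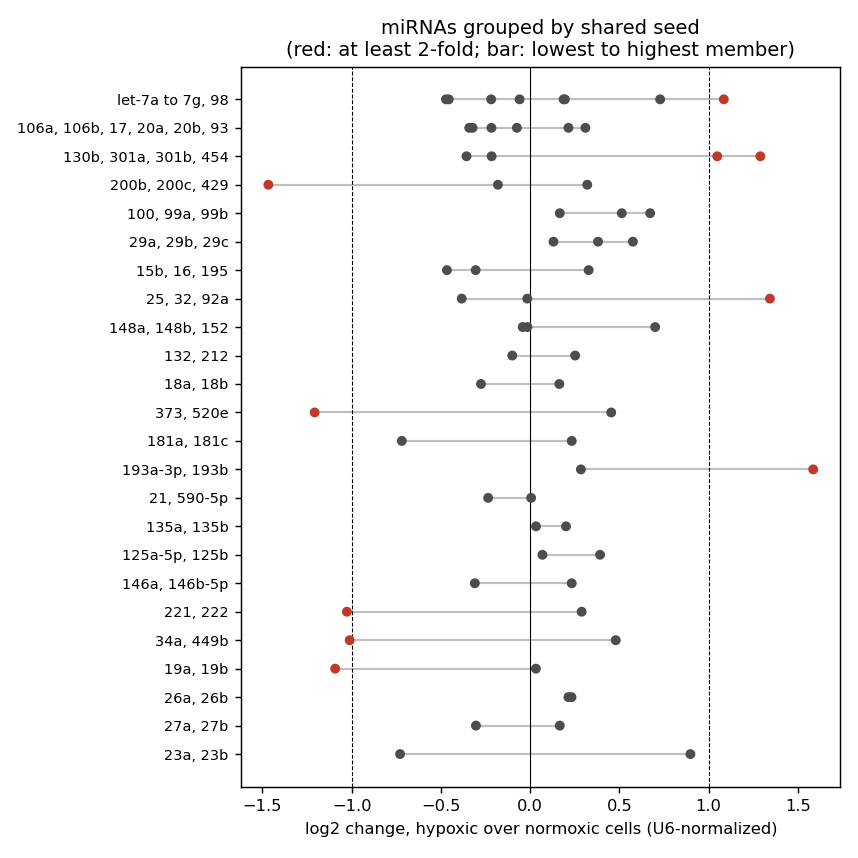
log2 change (hypoxic over normoxic cells, U6-normalized, horizontal axis) of the members of the 24 seed groups with at least 2 assays detected in both cell samples, 1 row per group and 1 point per assay, with a grey bar from the lowest to the highest member. Red points are past the dashed 2-fold lines; 18 of the 24 rows have points on both sides of 0.

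Genes that lie side by side were compared as well, since they can be cut from 1 transcript. Within 10 kb on 1 strand there were 23 clusters with assays of at least 2 hairpins detected in both samples. Of these, 8 had every assay above 0, 2 had every assay below 0 and 13 were mixed, with a median span of 0.69. With RNU44 and RNU48 the cluster of miR-29c and miR-29b left the first kind. The span and signs of groups of unrelated assays were not computed, so these counts cannot be read as particular to neighbours. The cluster with both members past 2-fold was that of miR-301b (mature sequence at chr22:21653025-21653047, plus strand) and miR-130b (hairpin at chr22:21653304-21653385, plus strand). miR-194 (2.13) and miR-192 (0.59) lie together on chromosome 11, at chr11:64891355-64891439 for MIR194-2 and chr11:64891137-64891246 for MIR192, minus strand. A second miR-194 gene lies beside MIR215 on chromosome 1, at chr1:220118157-220118241 and chr1:220117853-220117962, minus strand, and of these 3 p53-linked miRNAs only miR-194 was past 2-fold, while miR-215 was seen in hypoxia only; none had a Ct earlier than 32.84. miR-98 (1.09) and let-7f (0.73) are neighbours on the X chromosome, while let-7f also has a gene beside let-7a (-0.22) and let-7d (-0.47) on chromosome 9.

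Other clusters were mixed in sign or wholly below 0, and some of the mixed signs rest on values near 0. In the miR-17-92 cluster of chromosome 13 the values were -0.07 for miR-17, 0.16 for miR-18a, -1.09 for miR-19a, -0.34 for miR-20a, 0.03 for miR-19b and -0.02 for miR-92a. The hairpins of miR-200b (chr1:1167104-1167198), miR-200a and miR-429 (chr1:1169005-1169087) lie on the plus strand, and their values were 0.32, -0.10 and -1.47. miR-221 (-1.03) and miR-222 (0.29), at chrX:45746157-45746266 and chrX:45747015-45747124 on the minus strand, had opposite signs. The clusters of miR-23a, miR-27a and miR-24 (-0.73, 0.17 and 0.08) on chromosome 19 and of miR-23b, miR-27b and miR-24 (0.90, -0.30 and 0.08) on chromosome 9 were each mixed. Both members were below 0 for miR-15b (-0.47) and miR-16 (-0.31) on chromosome 3 and for let-7a (-0.22) and let-7b (-0.46) on chromosome 22.

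**Figure D5:**
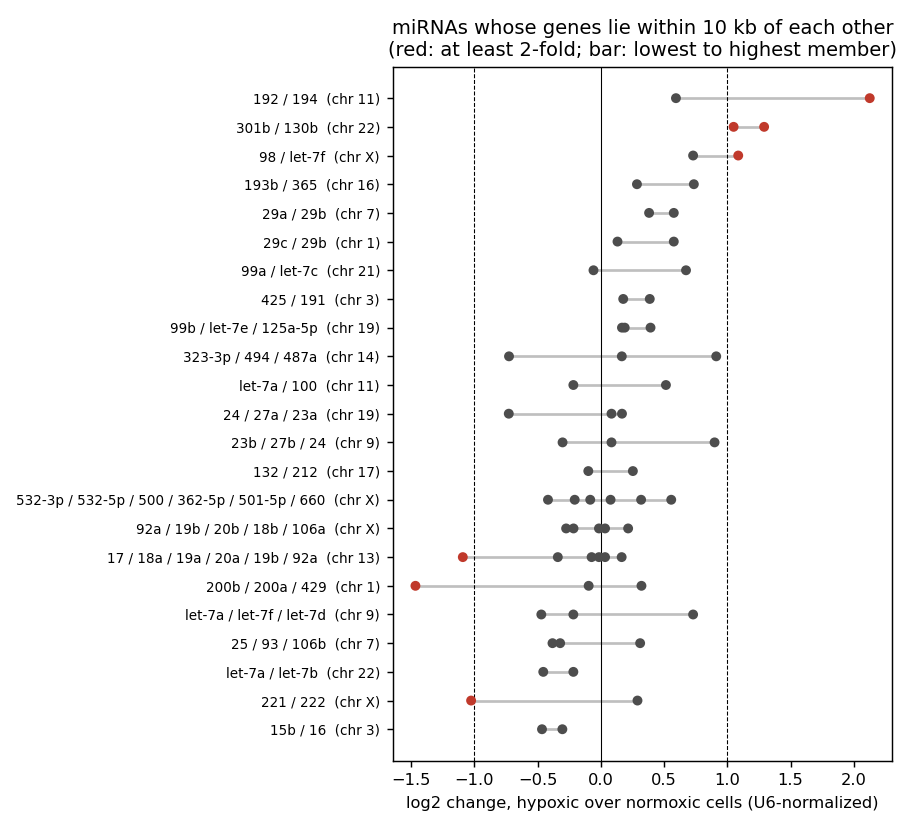
log2 change (hypoxic over normoxic cells, U6-normalized, horizontal axis) of miRNAs whose genes lie within 10 kb on 1 strand, 1 row per cluster and 1 point per assay, with a grey bar from the lowest to the highest member. Red points are past the dashed 2-fold lines; the row of miR-301b and miR-130b has both points past the upper line, and 13 of the 23 rows are mixed in sign. A miRNA with several genes appears in each of its clusters.

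Both arms of a hairpin come from the same precursor and gave another comparison. Of 48 hairpins with both arms on the card, 7 had both detected in both samples, and in 6 of these both arms had the same sign (5 with RNU44 and RNU48, which put miR-324-3p at -0.14, and 4 without the third U6 well). The median difference between arms was 0.35 and the largest 0.89. For miR-193a the 3p arm was at 1.59 and the 5p arm at 0.70 (Ct 32.67 and 31.97). miR-324 had 0.88 for the 5p and 0.01 for the 3p arm, and miR-532 0.56 for the 3p and -0.08 for the 5p arm. Closest were the arms of miR-339 (-0.50 and -0.47). Those of miR-142 (-0.02 and -0.19), miR-140 (-0.16 and -0.03) and miR-886 (-0.56 and -0.21) were at most 0.35 apart. miR-886 is counted as a hairpin by its card name alone, since its assays matched no RefSeq mature sequence. For miR-28 the 3p arm was lower (-1.13) while the 5p arm appeared in hypoxia only. For miR-455 the 5p arm was at 0.57 and the 3p arm appeared in hypoxia only.

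Among 18 miRNAs that other work has linked to hypoxia, 17 were detected in both cell samples, against 147 of all 377 assays. The remaining one, miR-107, was seen in hypoxia only. Only miR-210 was past 2-fold, so that 1 of 17 was higher and 0 lower, against 7.48% and 6.12% of all 147 assays. The list's median was 0.09 against 0.03 over all 147 assays. The other 16 ran from miR-23a (-0.73) to miR-23b (0.90), with miR-24 (0.08), miR-26a (0.23), miR-27a (0.17) and miR-181a (0.23) between them. Of 15 assays for miRNAs that act on the HIF pathway, 10 were detected in both samples, with a median of 0.18. None of the 10 was past 2-fold upward and only miR-429, which represses HIF1A, downward, against 7.48% and 6.12% of all 147 assays. miR-107 (at least 3.72-fold higher) and miR-424 (at least 3.16-fold higher) of this list were seen in hypoxia only. Its members act on different proteins: the HIF1A repressors miR-17 (-0.07), miR-20a (-0.34), miR-155 (0.69) and miR-138 (0.23) and the repressors of factor-inhibiting HIF miR-31 (0.05), miR-135b (0.20) and miR-184 (0.95) all lay within 2-fold. miR-184 went from Ct 32.94 to 31.98.

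Of the miRNAs linked to myeloma, the 15 described as oncogenic were all detected in both samples, against 147 of all 377 assays. Their median was -0.07. miR-32 was higher, miR-19a and miR-221 were lower, and the other 12 were within 2-fold, so that 1 of 15 was higher and 2 of 15 lower, against 7.48% and 6.12% of all 147 assays. Among those within 2-fold was miR-21 (27.75 and 27.98, log2 change -0.24), which represses PDCD4. Of the 13 described as tumour suppressors 8 were detected in both samples, with a median of 0.53. Past 2-fold was miR-194 (higher), 1 of 8 against 7.48% of all 147 assays. Next to it were miR-203 (0.71), miR-192 (0.59), the 3 miR-29 assays and miR-34a (0.48), while miR-16 was at -0.31. miR-15a of this list was seen in normoxia only and miR-215 in hypoxia only. The p53 list shares miR-34a, miR-192, miR-194, miR-215, miR-15a and miR-16 with it. Of its 10 assays 4 were detected in both samples (median 0.54), miR-15a in normoxia only, and miR-107 and miR-215 in hypoxia only.

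The angiogenesis list had 14 of 16 assays detected in both samples and a median of -0.04. miR-210, whose target EFNA3 restrains vessel formation, was higher in it and miR-19a and miR-221 were lower, 1 and 2 of 14 against 7.48% and 6.12% of all 147 assays. miR-15a of this list was seen in normoxia only (at least 30.0-fold lower in hypoxia). The list of glucose and mitochondrial regulators had 4 of 8 detected, miR-210, miR-23a, miR-23b and miR-195 (0.33), with a median of 0.61. The lists overlap, so that miR-210, miR-19a and miR-221 each count in more than 1 of them.

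The same assays in the exosome fraction are given side by side, since it came from the medium of such cells; those samples were pre-amplified and normalized to a spike-in. Of the 20 miRNAs past 2-fold in cells 18 were detected in both exosome samples and 0 of them was past 2-fold there, with log2 changes from -0.72 to 0.72. The share past 2-fold among all 203 pairs detected in the exosome fraction is not given here. The 0 of 18 therefore cannot be read as particular to these miRNAs. For miR-210 the exosome Ct was 23.99 and 23.66 (0.39). miR-194 (-0.11), miR-193a-3p (-0.26), miR-32 (0.03) and miR-130b (0.07) lay near 0 there. The lowest was miR-301b (-0.72), which was higher in cells, and the highest miR-449b (0.72), which was lower in cells. The median in the exosome fraction was -0.04 for the 10 that were higher in cells and -0.08 for the 8 that were lower. The exceptions in detection were miR-98, at 35 in both exosome samples, and miR-520e, at 35 in normoxic but 18.98 in hypoxic exosomes. miR-520e thus had the opposite order in the exosome fraction and in cells, each from 1 well per sample.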

How the data were processed

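miRNA levels were measured by quantitative PCR on TaqMan array cards in 1 normoxic and 1 hypoxic sample of cells and likewise of the exosome fraction. The authors deposited every well's threshold cycle (Ct) without normalization, and a table of the ratio (fold) of hypoxia over normoxia; per the series' design text, Data Assist software was used. No genome build or aligner belongs to the assays. A U6 assay normalized the cells and the spike-in ath-miR159 the exosome fraction. Here the log2 change was minus the difference in Ct after subtracting the mean of the 4 U6 wells of each card. It differed from the log2 of the ratio in the authors' deposited table by at most 0.000216 over 147 assays. With 1 sample per group and 1 well per miRNA no test was made, and no depth or counting error applies to a Ct.

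An assay was called when under Ct 35 in both samples and past 2-fold. For an assay at 35 in 1 sample a bound was computed against 35, taking a doubling per cycle, and a smaller step would lower it. Card names were paired with current mature names by hand from general knowledge of each miRNA's main arm and matched to RefSeq by name: 236 of the 377 assays matched, and a missing entry was left unmatched. Seed groups use bases 2 to 8, and clusters use hairpins within 10 kb on 1 strand. The named miRNAs were the controls, those past 2-fold, those seen in 1 sample before Ct 33, the 10 lowest Ct per sample, members of seed groups and clusters, both arms of a hairpin, and up to 4 members per list with the lowest mean Ct. Others were chosen after their values were seen. The members and the 16 lists were chosen with earlier results of these data known. Alternatives were other normalizers, leaving out a U6 well, Ct limits of 34 and 32, 1.9-fold per cycle, a 1.5-fold threshold, bounds in list medians and a 50 kb distance. Calculations used Python 3.11.15, pandas 2.3.3 and numpy 2.4.6 and were tested on simulated data.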

Additional observations from a re-analysis of the deposited data

How the results depend on the processing

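The count of 11 higher assays was 6 with RNU44 and RNU48 as normalizer, 7 with Ct under 34 required in both samples, 1 with Ct under 32 required, and 28 at a 1.5-fold threshold. The count of 9 lower assays was 4 with Ct under 32 required. A 1.9-fold step per cycle gave 9 higher and 7 lower. Of the assays seen in normoxia only, 3 of 15 remained when Ct under 32 was set against 35, and of those in hypoxia only 0 of 8; with detection at Ct under 34 the latter were 15. Requiring Ct under 32 leaves fewer assays to count. Leaving out 1 U6 well, the third, gave 13 higher and 7 lower. Another normalizer moves every log2 change by the same amount, the largest shift being -0.15 with RNU44 and RNU48. The root of the summed variances of the U6 wells on the normoxic and hypoxic cards was 0.19. The 20 called miRNAs therefore had to keep their sign, which is no separate check of each. Some crossed 2-fold: miR-301b, miR-328, miR-423-5p, miR-652 and miR-98 with RNU44 and RNU48. Without the third U6 well miR-221 (-0.97) and miR-449b (-0.95) did so. The list medians were recomputed only with bounds included, and the median cluster span only with the wider distance. These kept their sign and moved by less than 0.19, a value that describes U6 wells and not medians or spans. List medians were not recomputed with RNU44 and RNU48. Their shift would turn those of the hypoxia (0.09), nervous system (0.06) and endothelial (0.01) lists negative. With neighbours within 50 kb there were 26 clusters with a median span of 0.59. What limits the precision is the single sample and single well behind each Ct, and the late Ct of most assays past 2-fold (14 of 20 at a mean of 32 or more). No paired analysis was possible because each group has 1 sample and the labels carry no replicate numbers.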

Other observations

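The uneven placement of Ct values was not confined to the cell samples. In the exosome fraction the last 0.1 of a cycle held 51.6% of the detected normoxic and 59.4% of the detected hypoxic wells, and 202 of the 203 pairs detected in both samples had at least 1 Ct within 0.1 of a whole number. In the cells, where only 1 Ct of a pair was so placed, it was the higher Ct in 87 of 112 pairs and the lower in 25. Of the 35 pairs with both so placed, 26 were on the same whole cycle, 7 had the hypoxic Ct 1 cycle lower and 2 had it 1 cycle higher. Of the 23 assays seen in only 1 cell sample, 16 had a Ct so placed. The cause was not tested.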
